A study of Homo sapiens with 8 samples.

Results

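ErbB receptors, their ligands and the feedback inhibitor ERRFI1 were followed in CAL-27 cells treated with kinase inhibitors. The 10 genes were EGFR, ERBB2 and ERBB3 (receptors), NRG1, AREG, TGFA, HBEGF, EREG and BTC (ligands), and ERRFI1. Every probe that carried one of these names in the array annotation was taken, which gave 20 of the 41000 probes. Of these, 15 probes for 9 genes were measured above background on at least 2 arrays and were tested, among 24771 tested probes in all. For these genes probes were taken by gene name and not by their values. The genes, and the pathway lists read further on, were chosen with earlier results of these data known. Their shares of calls are therefore descriptive. CAL-27 is an established human cell line from a squamous carcinoma of the tongue.

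The 8 single-colour arrays fall into 3 groups. In all of them the cells were grown in medium with 10% serum. Per the labels' treatment text, cells were deprived of serum for 24 h before 24 h with inhibitor. The 3 enzastaurin arrays hold cells given 10 µM of this kinase inhibitor, which was developed against protein kinase C. The 2 Go arrays hold cells given a second inhibitor named only as Go, for which no dose is given. The 3 control arrays hold cells labelled as controls, with no vehicle named, so that absence of serum is shared by the groups as far as the labels state it. All arrays come from 1 cell line, and no label says whether replicates were separate cultures, so each p-value reflects nothing wider than the variation among these arrays, which may be technical. The Go and enzastaurin doses cannot be matched, and the inhibitors are set side by side on that footing.

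ErbB receptors are tyrosine kinases that pair when a ligand binds and then signal through RAS and ERK, PI3-kinase and other routes. EGFR binds amphiregulin, TGF-alpha, HB-EGF, epiregulin and betacellulin, whereas ERBB3 binds neuregulins and signals mainly through its partner ERBB2, which has no known ligand of its own. The ligands are made as membrane precursors and released by proteases, and several of these genes, among them ERRFI1, are themselves induced by receptor signalling. EGFR is commonly abundant in squamous carcinoma.

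Values are log2 signals after background correction and quantile normalisation between arrays, and differences are on that log2 scale. A probe is called where limma's adjusted p over all tested probes was under 0.05. Spot positions and array positions in the scanner tables put the 3 controls on one slide (the first) together with Go 1, and the 3 enzastaurin arrays on another (the second) together with Go 2. No label names a slide, so the slides are inferred from these positions throughout. Enzastaurin and control arrays thus shared no slide, so that without the Go arrays drug and slide cannot be told apart. Differences are therefore also given with slide as a block, a fit that links the slides through 1 Go array on each. In it, Go against control sets Go 1 alone against the controls, as does leaving out Go 2. Go against enzastaurin sets Go 2 alone against the enzastaurin arrays, as does leaving out Go 1. Array positions ran control 1, 2, 3 and Go 1 along the first slide, and Go 2 and enzastaurin 1, 2 and 3 along the second. On the first principal component, the axis of widest variation among arrays (81.4% of the variance), arrays lay in that order. Values were -85.5, -68.7, -34.1 and 4.12, then 40.4, 45.5, 48.3 and 50.1. The Go arrays thus stand at slide ends, and the effect of position was not tested. Between 52.1% and 57.3% of probes were above background on each array, and all 8 squamous keratinocyte markers on the array were above background on all 8 arrays. Of 5 leukocyte markers CD3E and CD68 were above background on all 8 arrays and PTPRC and LYZ on 0, and of 4 endothelial markers VWF was on all 8, CDH5 on 2 and PECAM1 and KDR on 0. Of 6 fibroblast markers COL1A1 and LUM were above background on 7 arrays and PDGFRB on 0. The deposited intensities of these leukocyte, endothelial and fibroblast probes summed to 199.5 to 284, 63.5 to 153 and 86.5 to 215 on an array, and their part in the results was not tested. The summed deposited intensity of the keratinocyte markers was 51259 to 64570 on controls, 63372 to 84009 on enzastaurin arrays and 59201 to 60169 on Go arrays. These sums are not scaled between arrays, and unscaled, all tested probes together shifted by 0.30 with enzastaurin. After normalisation the 8 markers had a median difference of -0.23 with enzastaurin, 1 called higher and 2 lower (17.6% and 36% of all genes). With Go that median was -0.41, with 0 called higher and 4 lower (10.9% and 18.4% of all genes). In a bulk sample, fewer cells of a kind and less RNA per cell cannot be told apart.

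**Figure D1:**
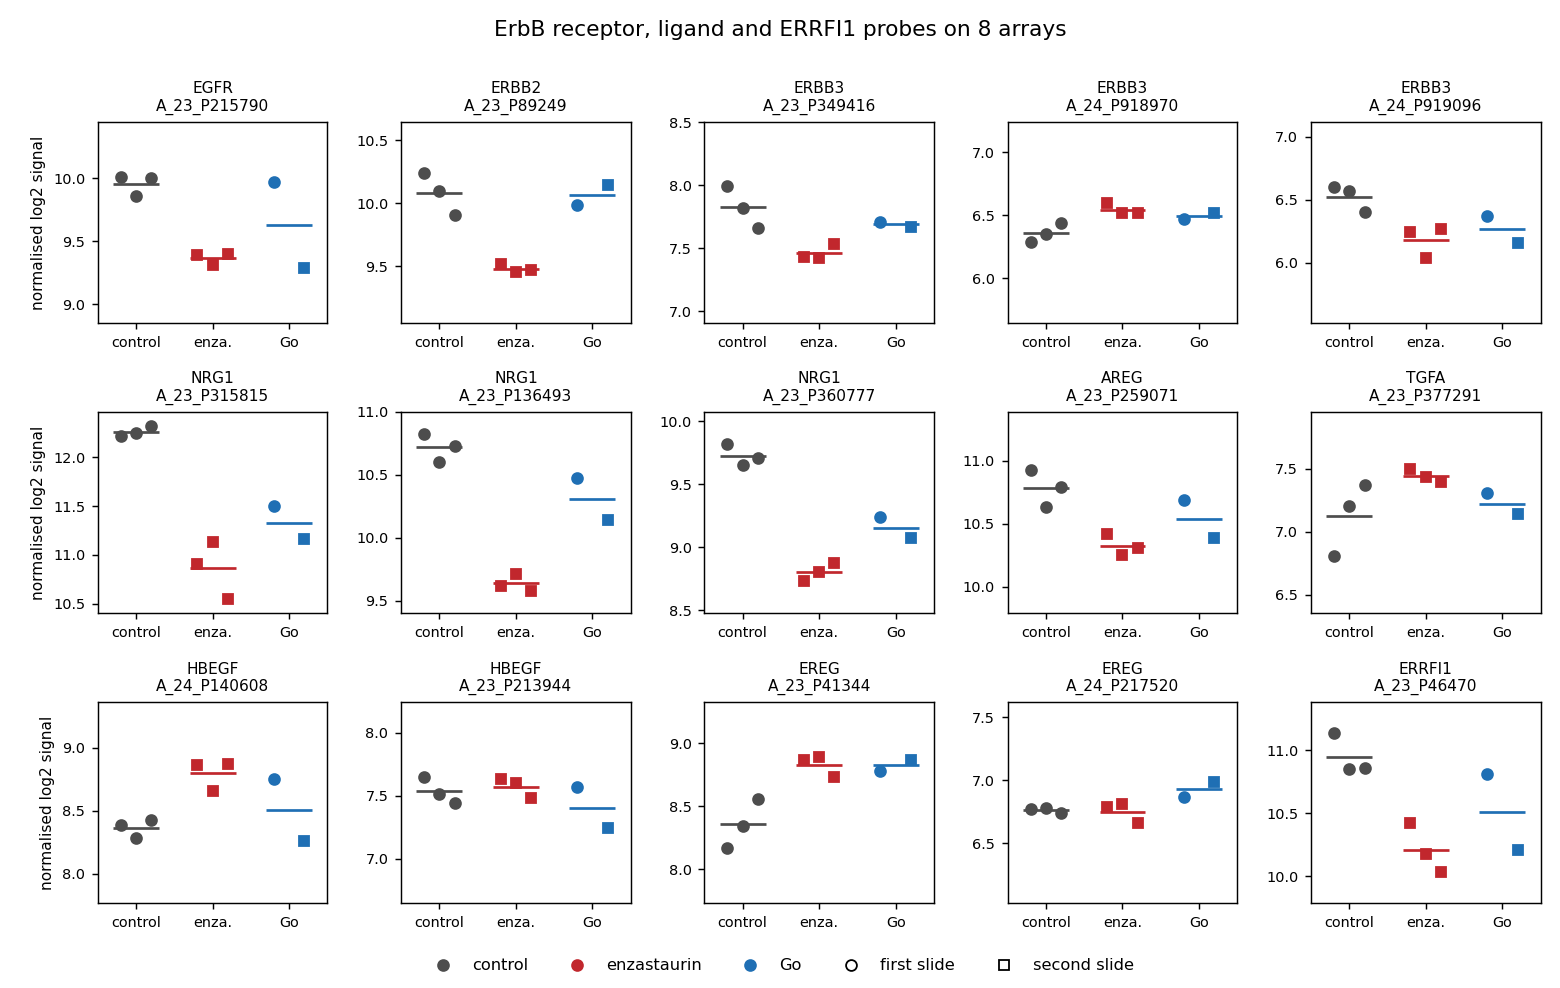
Normalised log2 signal (vertical axis) of the 15 tested probes by group (horizontal axis); each point is 1 array, circles mark the first slide, squares the second, and horizontal lines are group means. For EGFR, Go 1 at 9.97 lies with the controls and Go 2 at 9.29 with the enzastaurin arrays, while all 3 NRG1 probes put both Go arrays between the other groups.

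With enzastaurin, 11 of the 15 tested probes were called, 2 higher and 9 lower, against 52.6% of all tested probes, 22% higher and 30.6% lower. Enzastaurin and control arrays did not overlap for 13 of the 15 probes, against 67.9% of all probes. One of the 9 lower probes, A_24_P919096 of ERBB3, passed the filter through control arrays alone, so that it had to be low elsewhere, and without it the counts are 10 of 14 called, 8 of them lower, and 12 of 14 without overlap. The median difference over the tested member probes was -0.36, and over all tested probes -0.07. At the brightest probe of each gene 8 of 9 genes were called, against 53.6% of all genes. With slide as a block, 2 of the 15 probes were called, 1 of NRG1 and 1 of HBEGF, against 3.5% of all probes. With Go, 4 of 15 were called against control, 1 higher and 3 lower, where 29.7% of all probes were called, 13.2% higher and 16.4% lower. In this comparison 8 of 15 did not overlap, or 7 of 14 without that ERBB3 probe, against 56.6% of all, 2 of 9 genes were called at the brightest probe, against 29.3% of all genes, and 1 of 15 probes was called with slide as a block, against 5.59%. Between Go and enzastaurin, 2 of 15 were called, both higher with Go, where 4.47% of all probes were called, 2.37% higher and 2.1% lower. Here 7 of 15 did not overlap, against 46.2% of all, 1 of 9 genes was called at the brightest probe, against 5.7% of all genes, and 3 of 15 probes were called with slide as a block, against 5.32%. The same control arrays serve both inhibitor comparisons.

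**Figure D2:**
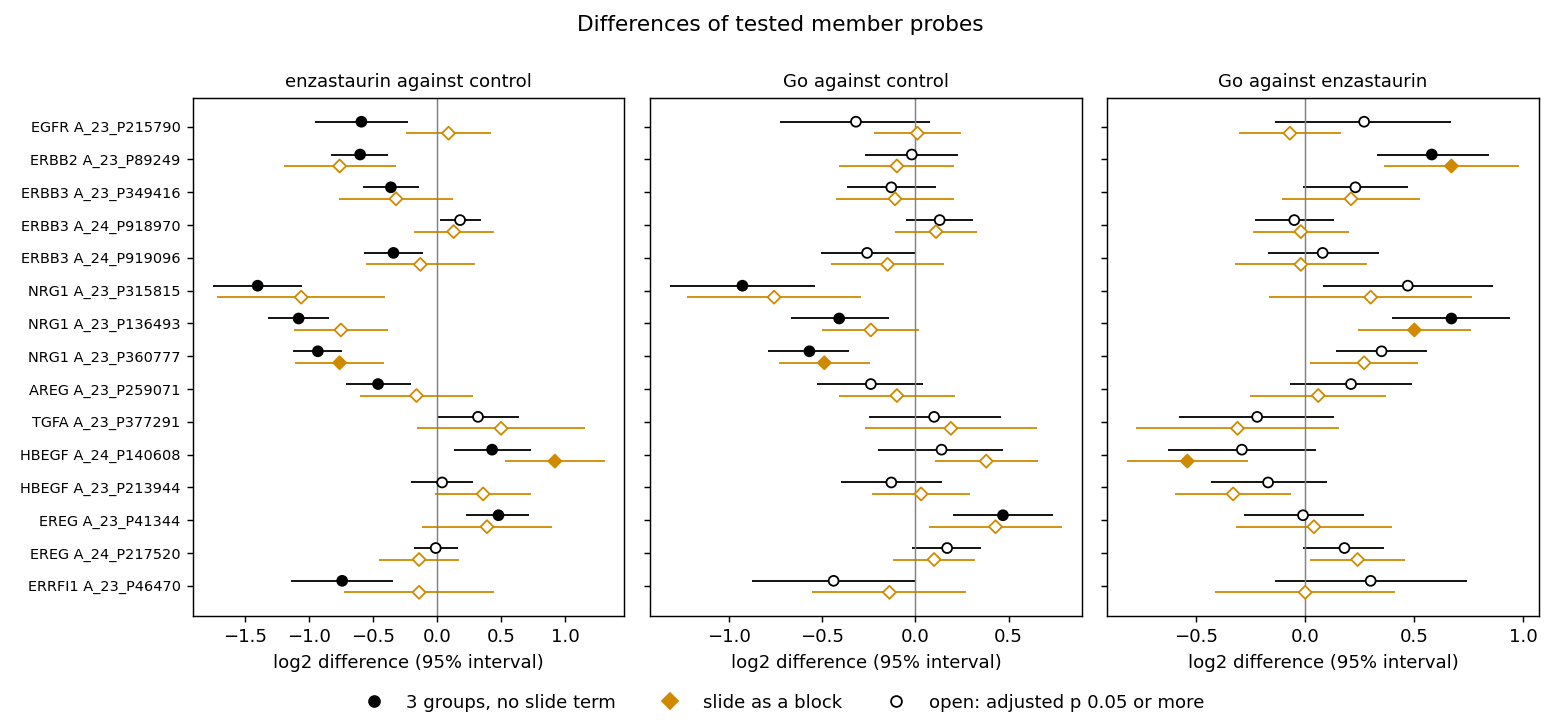
Log2 differences with 95% intervals (horizontal axis) of the 15 tested probes (vertical axis) in each comparison, from the fit of 3 groups (black) and with slide as a block (orange); filled symbols have an adjusted p under 0.05. For enzastaurin against control the black points run from -1.40 for an NRG1 probe to 0.48 for EREG; with the slide block the EGFR difference moves from -0.59 to 0.09 and that of HBEGF from 0.43 to 0.92.

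Receptors are described first. EGFR is the receptor that binds most of the ligands listed here, and its probe, A_23_P215790, was printed in 10 spots on each array. The EGFR signal was 10.01, 9.86 and 10.00 on control arrays, 9.39, 9.31 and 9.40 on enzastaurin arrays, and 9.97 and 9.29 on Go arrays. All enzastaurin arrays lay below all controls, whereas Go 1 lay among the controls and Go 2 below every enzastaurin array. The enzastaurin difference was -0.59 (SE 0.156, adjusted p = 0.0146, limma), or 0.664 times the control level. It was 0.09 (adjusted p = 0.713) with slide as a block, where Go 1 differed from the controls of its slide by 0.01 and Go 2 from the enzastaurin arrays of its slide by -0.07. In the deposited intensities, which are not scaled between arrays, EGFR was 800, 621 and 890 on controls and 771, 895 and 737 with enzastaurin, which overlap and differ by 0.07, the opposite sign, while all tested probes together shifted by 0.30. The EGFR call was also lost with each array scaled to its median (-0.30, adjusted p = 0.221), with the deposited values quantile normalised (-0.44, adjusted p = 0.111) and without enzastaurin 2 (adjusted p = 0.0518).

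The Go difference for EGFR was -0.32 against control (95% interval -0.73 to 0.08, adjusted p = 0.178) and 0.27 against enzastaurin (-0.14 to 0.67, adjusted p = 0.398), neither called. The Go arrays were 0.68 apart, which is wider than the spread within either other group. Without Go 1 the difference from control was -0.66 (adjusted p = 0.00362), and without Go 2 that from enzastaurin was 0.60 (adjusted p = 0.0125). The 10 spots of EGFR on 1 array spread by 0.231 to 0.325 (SD), and these are 1 hybridisation each, not replicates.

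ERBB2, the partner receptor without a ligand, fell with enzastaurin and did not move with Go beyond the spread of the arrays. Its signal on probe A_23_P89249, also printed in 10 spots, was 10.24, 10.10 and 9.91 on controls, 9.52, 9.46 and 9.47 with enzastaurin, and 9.99 and 10.15 with Go. Both Go arrays lay inside the control range, on either slide, and above all enzastaurin arrays. The enzastaurin difference was -0.60 (SE 0.0972, adjusted p = 0.00212, limma), and the Go difference from control -0.02 (95% interval -0.27 to 0.23). ERBB2 was 0.58 higher with Go than with enzastaurin (SE 0.109, adjusted p = 0.0285), which is 1.5 times the enzastaurin level. With slide as a block, where Go 2 alone enters this comparison, ERBB2 was 0.67 higher. The enzastaurin difference with slide as a block was -0.76 (adjusted p = 0.0714). The call between Go and enzastaurin did not hold without control 2 (adjusted p = 0.0694), enzastaurin 1 (0.11), enzastaurin 2 (0.124), enzastaurin 3 (0.106) or Go 2 (0.0559), with differences of 0.50 to 0.67 over all arrays left out. In the deposited intensities the enzastaurin difference kept its sign at -0.11 (adjusted p = 0.626). A second ERBB2 probe, A_24_P284420, was above background on 1 array only and was not tested.

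ERBB3, the neuregulin receptor, has 3 probes that did not move as one. The probe for the full mRNA, A_23_P349416, read 7.99, 7.82 and 7.66 on controls, 7.43, 7.42 and 7.53 with enzastaurin, and 7.71 and 7.67 with Go. All enzastaurin arrays were below all controls, and both Go arrays lay at the low end of the control range. The enzastaurin difference was -0.36 (SE 0.0935, adjusted p = 0.0137, limma), and the Go differences of -0.13 from control and 0.23 from enzastaurin were not called. The enzastaurin call was lost without enzastaurin 1 (adjusted p = 0.0512) or enzastaurin 2 (0.0524), with median scaling (-0.20, 0.0944), with slide as a block (-0.32, 0.309) and in the deposited intensities (-0.05, 0.846).

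The other 2 ERBB3 probes were designed on partial ErbB-3 clones and were dim. A_24_P919096 was above background on 2 control arrays and on no enzastaurin or Go array, so that the filter kept it only for its control level and its call (-0.34, adjusted p = 0.0213) supports nothing by itself. As a bound, the control mean was at least 1.18-fold above the enzastaurin level, with control 3 counted in that mean though not above background. The bound rests on the same selection and supports nothing by itself either. Such a bound sets the control mean against the lowest signal that counted as above background on each enzastaurin array, or the probe's own where higher. This call was lost without control 1 (adjusted p = 0.0626), control 2 (0.0733) or enzastaurin 2 (0.081) and with slide as a block (-0.13, 0.659). A_24_P918970 was higher by 0.18 with enzastaurin and not called (95% interval 0.02 to 0.34, adjusted p = 0.0545), the opposite sign to the other probes of the gene. It passed the threshold in 7 of 19 other settings, at adjusted p values of 0.0237 to 0.0478, and it was -0.16 (0.195), the same sign as the other probes, with scaling to the 75th percentile.

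NRG1, the neuregulin that binds ERBB3, showed the widest differences from control among the tested members after quantile normalisation. Its 4 probes were designed on transcript variants named in the annotation, GGF for A_23_P315815, GGF2 for A_23_P136493, HRG-beta2 for A_23_P360777 and SMDF for A_23_P407497. On the GGF probe the signal was 12.22, 12.25 and 12.32 on controls, 10.91, 11.13 and 10.55 with enzastaurin, and 11.50 and 11.16 with Go. The 3 groups did not overlap, with enzastaurin lowest, Go in between and control highest. The enzastaurin difference was -1.40 (SE 0.151, adjusted p = 0.000642, limma), or 0.379 times control, and the Go difference -0.93 (SE 0.168, adjusted p = 0.0127), or 0.525 times control.

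On the GGF2 probe the signal was 10.82, 10.60 and 10.73 on controls, 9.62, 9.71 and 9.58 with enzastaurin, and 10.47 and 10.14 with Go. On the HRG-beta2 probe it was 9.82, 9.65 and 9.71 on controls, 8.73, 8.80 and 8.87 with enzastaurin, and 9.24 and 9.07 with Go. Both probes gave the same order with no overlap between any 2 groups. The GGF2 probe fell by 1.08 with enzastaurin (adjusted p = 0.000488) and by 0.41 with Go (adjusted p = 0.0346). The HRG-beta2 probe fell by 0.93 with enzastaurin (adjusted p = 0.00042) and by 0.57 with Go (adjusted p = 0.00972). Thus all 3 tested NRG1 probes were called lower with either inhibitor, and they share a gene, so they are not independent of each other.

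Go and enzastaurin were set against each other for NRG1 too. The GGF2 probe was 0.67 higher with Go than with enzastaurin (SE 0.115, adjusted p = 0.0232). For the GGF probe that difference was 0.47 (95% interval 0.08 to 0.86, adjusted p = 0.159) and for the HRG-beta2 probe 0.35 (0.14 to 0.56, adjusted p = 0.074), neither called. Within the first slide Go 1 lay below the control mean by 0.76, 0.24 and 0.49 on the GGF, GGF2 and HRG-beta2 probes, each time below every control. Within the second slide Go 2 lay above the enzastaurin mean by 0.30, 0.50 and 0.27, each time above every enzastaurin array. With slide as a block the enzastaurin differences were -1.06 (adjusted p = 0.082), -0.75 (0.0525) and -0.76 (0.0446), so that only the HRG-beta2 probe stayed called, and its Go difference was -0.49 (0.0441). The GGF2 difference between Go and enzastaurin was 0.50 with the block. Each of these Go differences rests on 1 Go array, as the within-slide values do.

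The enzastaurin calls of NRG1 held with every array left out in turn and in the deposited intensities, where the GGF probe read 3935, 3676 and 5106 on controls, 2307, 3143 and 1619 with enzastaurin, and 3170 and 2225 with Go. The Go calls were less firm, and in the deposited intensities all 3 were lost (-0.66, -0.16 and -0.35, adjusted p = 0.143, 0.726 and 0.355). The GGF2 call for Go was also lost with scaling to the median (-0.22, 0.34) or the 75th percentile (-0.34, 0.0659). The GGF call was lost without control 2 (adjusted p = 0.0528) or Go 2 (0.0713), and the GGF2 call without control 1 (0.0868), control 2 (0.0694), any of enzastaurin 1, 2 and 3 (0.0641, 0.0603, 0.0595) or Go 2 (0.19). The GGF2 call between Go and enzastaurin was lost without enzastaurin 1, 2 or 3 (0.105, 0.0898, 0.0929), and the HRG-beta2 difference passed without Go 2 (0.44, 0.0424). When only the control and Go arrays entered the fit, none of the Go calls of these probes held (adjusted p = 0.0671, 0.115 and 0.0738 for GGF, GGF2 and HRG-beta2). The SMDF probe was above background on 0 arrays, with deposited intensities of 2 to 14.

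The ligands of EGFR did not move together. The sequence before the start site is shown for AREG, EREG and HBEGF, since AREG and EREG lie near each other on chromosome 4 and their probes were called in opposite directions with enzastaurin, and HBEGF was the other ligand probe called higher. Windows come from RefSeq (GRCh38.p14), are written 5′ to 3′ on the strand of the gene and end at the base before the start site. Capitals mark the motifs searched on both strands, which were TGACGTCA (the cyclic AMP response element), TATAAA (the TATA box), GGGCGG (the GC box, CCGCCC on the other strand) and CCAAT, with TGACTCA (AP-1) searched as well.
AREG: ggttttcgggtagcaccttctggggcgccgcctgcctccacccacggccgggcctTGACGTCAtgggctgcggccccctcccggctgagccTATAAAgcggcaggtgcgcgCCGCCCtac
EREG: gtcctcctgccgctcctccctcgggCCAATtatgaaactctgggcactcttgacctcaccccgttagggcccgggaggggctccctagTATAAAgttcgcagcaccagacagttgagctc
HBEGF: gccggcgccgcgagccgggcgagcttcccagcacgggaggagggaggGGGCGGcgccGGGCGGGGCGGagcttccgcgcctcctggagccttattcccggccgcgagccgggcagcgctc

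The AREG window, chr4:74445016-74445135 on the forward strand, holds TGACGTCA from position -65, TATAAA from -29 and a GC box on the other strand from -9, counted from the start site. The EREG window, chr4:74365025-74365144 on the forward strand, holds CCAAT from -95 and TATAAA from -32. The HBEGF window, chr5:140346604-140346723 on the reverse strand, holds GGGCGG from -73, -63 and -58, of which the last 2 overlap. In windows from 250 bases before to 50 after the start, 10 entries of 8 of the 10 genes were counted. Entries on chromosome 8 were left out, and NRG1 and ERBB3 are not among the genes counted. TGACGTCA was in 1 of these 10 windows and in 1.85% of all 35116 windows, TATAAA in 3 and 11.5%, and GGGCGG in 6 and 45%. CCAAT was in 3 of the 10 and in 34.6% of all, and TGACTCA in 1 and in 4.95%, a window of EGFR. A match describes letters only.

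AREG encodes amphiregulin, an EGFR ligand long known from keratinocytes. Its signal on A_23_P259071 was 10.93, 10.63 and 10.79 on controls, 10.42, 10.25 and 10.31 with enzastaurin, and 10.69 and 10.39 with Go. Enzastaurin arrays lay below all controls, and of the Go arrays 1 lay within the controls and the other within the enzastaurin arrays. The enzastaurin difference was -0.46 (SE 0.11, adjusted p = 0.0102, limma), but 0.08 (adjusted p = 0.784) in the deposited intensities without scaling, where all tested probes together shifted by 0.30. It was -0.13 (adjusted p = 0.467) with median scaling and -0.16 (adjusted p = 0.597) with slide as a block. The Go differences of -0.24 from control (95% interval -0.53 to 0.04) and 0.21 from enzastaurin (-0.07 to 0.49) were not called.

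EREG encodes epiregulin, which binds EGFR. On A_23_P41344 it read 8.17, 8.34 and 8.56 on controls, 8.87, 8.89 and 8.73 with enzastaurin, and 8.78 and 8.87 with Go. All 5 inhibitor arrays were above all 3 controls, with Go 1 on the slide of the controls. On that slide EREG rose in the order of array position, from control 1 through control 3 to Go 1, and position was not tested. EREG was 0.48 higher with enzastaurin (SE 0.106, adjusted p = 0.0073, limma) and 0.47 higher with Go (SE 0.118, adjusted p = 0.026), and the difference between the inhibitors was -0.01 (95% interval -0.28 to 0.27). With slide as a block the differences were 0.39 (adjusted p = 0.281) and 0.43 (0.127). The Go call was lost without control 1 (adjusted p = 0.0568), control 2 (0.0805), enzastaurin 1 (0.0503) or Go 2 (0.127) and with only the control and Go arrays in the fit (0.0972), while the difference stayed between 0.38 and 0.57 over the arrays left out. The dimmer EREG probe, A_24_P217520, read 6.66 to 6.99 over the 8 arrays and differed by -0.01 with enzastaurin (95% interval -0.18 to 0.16) and by 0.17 with Go (-0.02 to 0.35), so that the 2 probes of EREG disagreed on enzastaurin. With scaling to the 75th percentile this dimmer probe was called lower with enzastaurin (-0.28, adjusted p = 0.0461).

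HBEGF encodes HB-EGF, a heparin-binding ligand. Its brighter probe, A_24_P140608, read 8.39, 8.28 and 8.43 on controls, 8.86, 8.66 and 8.87 with enzastaurin, and 8.75 and 8.26 with Go. Enzastaurin arrays were above all controls, Go 1 stood above the controls of its slide, and Go 2 below the enzastaurin arrays of its slide and below all controls. HBEGF was 0.43 higher with enzastaurin (SE 0.13, adjusted p = 0.0255, limma) and 0.92 higher with slide as a block (adjusted p = 0.0373). The call without the block was lost without control 1 (adjusted p = 0.0536), control 2 (0.0862), enzastaurin 1 (0.0822) or enzastaurin 3 (0.0838). Go differed by 0.14 from control (95% interval -0.20 to 0.47) and by -0.29 from enzastaurin (-0.63 to 0.05). The latter difference was -0.54 with the block or without Go 1, which are the same contrast.

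The second HBEGF probe, A_23_P213944, read 7.24 to 7.65 over the 8 arrays and differed by 0.04 with enzastaurin (95% interval -0.20 to 0.28), so that the 2 HBEGF probes disagreed. In the deposited intensities, however, its values of 113, 88 and 119 on controls lay below the 155, 182 and 124 of the enzastaurin arrays. That difference of 0.46 was not called, and all tested probes together shifted by 0.30 there. Relative to that shift it was 0.16. TGFA encodes TGF-alpha, and its probe A_23_P377291 read 6.81, 7.21 and 7.37 on controls, 7.50, 7.44 and 7.40 with enzastaurin, and 7.31 and 7.14 with Go. Enzastaurin arrays were above all controls by a narrow margin, and both Go arrays lay within the controls. The difference of 0.32 (SE 0.138, 95% interval 0.00 to 0.64, adjusted p = 0.081, limma) was not called. It was called without control 3 (0.44, adjusted p = 0.0201), with median scaling (0.41, 0.0402) and in the deposited intensities (0.82, 0.0229). Relative to the shift of all tested probes in the deposited intensities, the TGFA difference was 0.52. With slide as a block the TGFA difference was 0.50 and was not called.

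BTC encodes betacellulin, and both of its probes were above background on 0 of 8 arrays. The deposited intensity of A_23_P135722 was 8, 9 and 6 on controls, 13, 18 and 18 with enzastaurin, and 15 and 21 with Go. On A_32_P865613 it was 8, 3 and 5, then 16, 29 and 29, then 23 and 6. These values were not well above background on any array and give no fold.

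**Figure D3:**
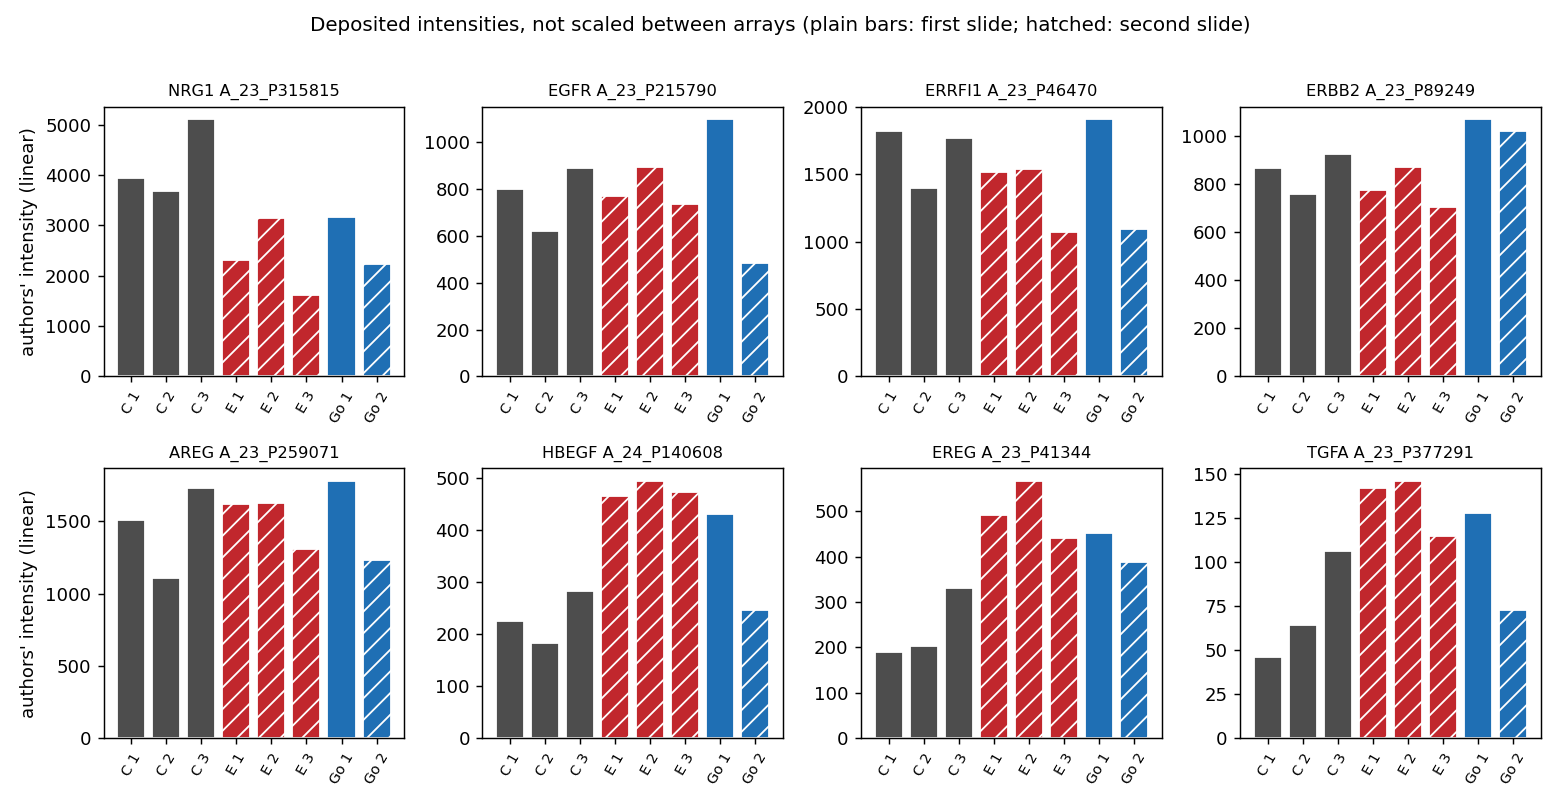
Authors' deposited intensity on a linear scale without scaling between arrays (vertical axis, from 0) for 8 probes on each array (C control, E enzastaurin); plain bars are the first slide and hatched bars the second. NRG1 is lower on every enzastaurin array than on every control, HBEGF and EREG are higher, and EGFR and AREG overlap between these groups here, with differences of 0.07 and 0.08 against the negative ones after normalisation.

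ERRFI1 encodes MIG6, which binds ErbB kinase domains and inhibits them. Its signal on A_23_P46470 was 11.14, 10.85 and 10.86 on controls, 10.42, 10.18 and 10.03 with enzastaurin, and 10.81 and 10.21 with Go. Enzastaurin arrays were below all controls. Go 1 lay just under the lowest control and Go 2 lay among the enzastaurin arrays, the same split by slide as for EGFR. The enzastaurin difference was -0.74 (SE 0.172, adjusted p = 0.00869, limma), or 0.598 times control. With slide as a block it was -0.14 (adjusted p = 0.737), and within slides Go 1 differed from the control mean by -0.14 and Go 2 from the enzastaurin mean by 0.00. The enzastaurin call was also lost with median scaling (-0.42, adjusted p = 0.107) and in the deposited intensities (-0.28, 0.371). The Go differences of -0.44 from control (95% interval -0.88 to 0.00, adjusted p = 0.111) and 0.30 from enzastaurin (-0.14 to 0.74) were not called, though the former was called without Go 1 (-0.74, adjusted p = 0.0173). A second ERRFI1 probe, A_24_P11384, was above background on 1 array, with deposited intensities of 12 to 25.

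The genes thus fell into different patterns over the Go arrays. Both Go arrays stood between control and enzastaurin for NRG1, at the control level for ERBB2 and at the enzastaurin level for the brighter EREG probe. For EGFR, ERRFI1 and the brighter HBEGF probe the Go arrays were 0.68, 0.60 and 0.49 apart, with Go 2 the lower each time. How much of those differences goes with the slide was not tested beyond the block and the within-slide values.

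Genes with the profiles most like those of EGFR, NRG1, AREG and ERRFI1 over the 8 arrays were found from the root mean square difference between profiles centred on their means. For EGFR they were MYOF (0.0606), IRS2 (0.0686) and MYOG (0.0732), where the median over all genes was 0.30. For NRG1, at its GGF probe, they were GGTLC2 (0.192), TMA7 (0.196) and CAMK2N2 (0.197), with a median of 0.594. For AREG they were INHBA (0.0441), FAM133B (0.0557) and GEMIN2 (0.0558), with a median of 0.232, and for ERRFI1 ZNF696 (0.0746), RCOR2 (0.0888) and PCCB (0.0975), with a median of 0.351. Distances were also taken under the other scalings and background corrections, and with the deposited values quantile normalised. Those from EGFR rose to as much as 0.164 for MYOF, 0.178 for IRS2 and 0.323 for MYOG. MYOG thus had the widest rise of the 3 and is the least stable neighbour among them. Medians over all genes were not taken in those settings. Distances of INHBA and GEMIN2 from AREG rose to 0.105 and 0.114, and that of RCOR2 from ERRFI1 to 0.161. The nearest profiles to NRG1 were farther away than those to the other 3 genes, and its profile spans a wider range.

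Other genes of the ErbB pathway were read at 1 probe each, the brightest, by lists that hold none of the 10 members. The remaining family genes ERBB4, EGF, EPGN, NRG2 and NRG4 had 6 probes on the array, and 0 of them were above background on any array, with deposited intensities of 0.5 to 19. Of 11 genes of ligand release, 2 were called higher and 3 lower with enzastaurin, against 17.6% and 36% of all 12640 genes, and their median of -0.08 compares with -0.14 over all genes. RHBDF2, the inactive rhomboid that helps the ligand protease to the cell surface, was 3.32 higher with enzastaurin (adjusted p = 0.000665, limma) and 2.95 higher with Go (adjusted p = 0.00747). It read 6.93, 7.42 and 8.35 on controls, 11.01, 10.80 and 10.85 with enzastaurin, and 10.02 and 11.02 with Go. All inhibitor arrays on both slides were above all controls. The controls rose in the order of their positions on the slide, with Go 1 next at 10.02, and position was not tested. CD9, a tetraspanin that associates with the HB-EGF precursor, was 0.98 higher with enzastaurin (adjusted p = 0.000605) and 0.97 lower with Go than with enzastaurin (difference -0.97, adjusted p = 0.00711). TIMP3, an inhibitor of the shedding proteases, fell by 0.50 and RHBDF1 by 0.52 with enzastaurin. These 4 enzastaurin calls were lost with slide as a block, at 2.32 for RHBDF2 (adjusted p = 0.0913), 0.78 for CD9 (0.0731), -0.28 for TIMP3 (0.399) and -0.23 for RHBDF1 (0.546). With the block RHBDF2 was 2.45 higher with Go than control, from Go 1 alone. CD9 differed by -0.88 between Go and enzastaurin, from Go 2 alone. The 1 gene of the list called with the block for enzastaurin was the protease gene ADAM17 (-0.91, adjusted p = 0.0207), named after its values were seen, which was -0.32 (0.085) without the block. With median scaling the TIMP3 and RHBDF1 calls were lost too (-0.30 and -0.25). With Go, 1 gene of the list was called higher and 1 lower, against 10.9% and 18.4% of all genes, the latter being the protease gene ADAM12 (-0.50, adjusted p = 0.014), whose call was lost without control 2 or Go 2 and with slide as a block (0.0714). Between Go and enzastaurin 1 was called lower, CD9, against 2.24% of all genes.

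Among 23 adaptors and proximal kinases, 7 were called higher and 8 lower with enzastaurin, against 17.6% and 36% of all genes, with a median of 0.06. VAV3, a guanine nucleotide exchange factor, rose by 1.01, while the kinase gene SRC fell by 0.63, STAT5B, a transcription factor, by 0.87, and GRB7, an adaptor whose gene lies beside ERBB2, by 0.82. None of these 4 was called once slide entered as a block, at 0.99 for VAV3 (adjusted p = 0.0528), -0.54 for SRC (0.0627), -0.61 for STAT5B (0.0868) and -0.63 for GRB7 (0.13). A second, dimmer VAV3 probe differed by 0.02. With Go, 3 were called higher and 4 lower, against 10.9% and 18.4% of all genes, with PIK3R3 at 0.68, NCK2 at 0.37, SRC at -0.34 and GRB14 at -0.52. All of these were lost without Go 2, which is the same contrast as the slide block, and without control 2. NCK2 was also lost without control 1, and a second PIK3R3 probe differed by 0.15 with Go. Between Go and enzastaurin, 1 was called higher and 2 lower, against 3.47% and 2.24% of all genes. These were GRB7 at 0.62 (adjusted p = 0.0363), VAV3 at -0.65 (0.0239) and PIK3R1 at -0.39 (0.0493), each lost when any of at least 4 of the 8 arrays was left out and with slide as a block (adjusted p = 0.0938, 0.0535 and 0.0616).

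Among 20 genes of receptor down-regulation and inhibition, 3 were called higher and 6 lower with enzastaurin, shares near the 17.6% and 36% of all genes, with a median of -0.08. The widest difference in this list was that of TNK2, a kinase that binds EGFR, at -3.70 (adjusted p = 0.000698) on A_24_P94643, but its other tested probe, A_23_P61633, differed by -0.31 (adjusted p = 0.0196), so that the 2 probes disagreed on size. The slide block put A_24_P94643 at -1.81 (adjusted p = 0.0397). The ubiquitin ligase genes CBLC and RNF41 fell by 0.70 and 0.44, though a second RNF41 probe differed by 0.00, and NEDD4 rose by 0.35. A second NEDD4 probe was called lower (-0.28, adjusted p = 0.019, limma), so that the probes of NEDD4 disagreed in direction. RNF41 encodes a ligase that acts on ERBB3. The calls of CBLC (-0.67, adjusted p = 0.0819), RNF41 (-0.50, 0.0722) and NEDD4 (0.26, 0.222) were lost with slide as a block, and that of RNF41 also with median scaling (-0.22, 0.0747). With Go, 0 were called higher and 3 lower by limma, against 10.9% and 18.4% of all genes, with 7 at an unadjusted p under 0.05, and the 3 were TNK2 (-2.24), RAB7A (-0.62) and CBLC (-0.33). TNK2 read 11.25 on Go 1 and 9.36 on Go 2 and lost its Go call without control 2 (adjusted p = 0.0647), and with slide as a block it was at -1.29 (0.0281), while RAB7A (-0.39, 0.118) and CBLC (-0.31, 0.154) were not called. RAB7A lost its call without control 1, control 2 or Go 2, and CBLC without any of 7 arrays, control 3 being the exception. Leaving out Go 2 is here the same contrast as the slide block. Between Go and enzastaurin, 1 was called higher and 1 lower, against 3.47% and 2.24% of all genes. SOCS3 was lower with Go (-1.05, adjusted p = 0.0131) and RNF41 higher (0.40, adjusted p = 0.0265). With slide as a block, where Go 2 alone is set against the enzastaurin arrays, the differences were -0.83 and 0.43. The SOCS3 call was lost without enzastaurin 1 or 2, the RNF41 call without control 2 or any enzastaurin array, and a second SOCS3 probe differed by -0.09.

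Of 13 genes of the RAS to ERK cascade, 2 were called higher and 4 lower with enzastaurin, shares near the 17.6% and 36% of all genes, with a median of -0.21. RASA1, a GTPase activator for RAS, fell by 0.53 and HRAS by 0.35, and MAP2K2 rose by 0.36. None of the 3 was called with slide as a block, at -0.10 for RASA1 (adjusted p = 0.659), -0.29 for HRAS (0.24) and 0.47 for MAP2K2 (0.154). HRAS was -0.01 (adjusted p = 0.915) with median scaling and turned to 0.19 (0.457) in the deposited intensities without scaling, RASA1 was -0.30 (0.0953) with median scaling, and MAP2K2 lost its call without enzastaurin 3. With Go, 4 were called lower and 0 higher, against 18.4% and 10.9% of all genes, with 8 at an unadjusted p under 0.05, and among them were RASA1 (-0.63), HRAS (-0.34) and MAPK3 (-0.31). Each of these lost the call without control 2 and without Go 2, HRAS also without control 1, and MAPK3 also without control 1 or any enzastaurin array. The slide-block fit, the same contrast as leaving out Go 2, put their Go differences at -0.41, -0.31 and -0.21. With median scaling HRAS was -0.16 with Go (adjusted p = 0.314, limma). Between Go and enzastaurin limma called 0 of 13, with 0 at an unadjusted p under 0.05.

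Among 19 transcripts known to be induced by EGFR and ERK signalling, 3 were called higher and 6 lower with enzastaurin, shares near the 17.6% and 36% of all genes, with a median of -0.14, the same as over all genes. The cyclin gene CCND1 fell by 0.72, MYC by 0.70 and the ERK phosphatase gene DUSP6 by 0.82, and PHLDA1 rose by 0.78. A second MYC probe, A_24_P178011, fell by 0.80. Of the other PHLDA1 probes A_24_P915692 rose by 1.43, while A_23_P338912 and A_24_P943597 differed by 0.05 and 0.14 and were not called. With Go these PHLDA1 probes differed by 0.62, 0.06 and -0.20, the first alone called. CCND1 stayed called with slide as a block (-0.81, adjusted p = 0.0286), and MYC (-0.70, 0.071), DUSP6 (-0.56, 0.113) and PHLDA1 (0.72, 0.0915) did not. In the deposited intensities without scaling limma lost the enzastaurin calls of CCND1 (-0.23, adjusted p = 0.359), MYC (-0.10, 0.732) and DUSP6 (-0.39, 0.143). That of PHLDA1 was kept there. With Go, 3 were called higher and 3 lower, against 10.9% and 18.4% of all genes, with EGR1 at 0.45, PHLDA1 at 0.45 and PLAUR at -0.72 among them. Each of these calls was lost without Go 2 and without control 2, and that of PLAUR also without control 1. The slide block, which called none of these, is the same contrast as leaving out Go 2. Between Go and enzastaurin, 4 were called higher with Go and 0 lower, against 3.47% and 2.24% of all genes, with 10 of 19 at an unadjusted p under 0.05. These were MYC at 0.90 (adjusted p = 0.00515), CCND1 at 0.61 (0.00864), DUSP6 at 0.80 (0.0127) and EGR1 at 0.59 (0.0179). They also passed with slide as a block, where this contrast sets Go 2 alone against the enzastaurin arrays. In the deposited intensities without scaling all 4 calls were lost. There MYC was at 0.64, CCND1 at 0.40, DUSP6 at 0.61 and EGR1 at 0.42 (adjusted p = 0.202, 0.374, 0.223 and 0.323, limma). With the replicate number as a block the CCND1 and EGR1 calls were lost too (adjusted p = 0.0532 and 0.0707). The second MYC probe was not called between Go and enzastaurin (0.57, adjusted p = 0.259, limma), with Go 2 at 7.22 and enzastaurin arrays at 7.05 to 7.21.

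DUSP6 read 9.67, 9.46 and 9.43 on controls, 8.64, 8.66 and 8.81 with enzastaurin, and 9.63 and 9.37 with Go. CCND1 read 10.29, 10.33 and 10.31 on controls, 9.67, 9.51 and 9.60 with enzastaurin, and 10.16 and 10.26 with Go. Both Go arrays, one on each slide, lay above all enzastaurin arrays for both genes, as they did for ERBB2. The CCND1 call between Go and enzastaurin was lost without enzastaurin 2 (adjusted p = 0.0534), the DUSP6 call without enzastaurin 1 or 2 and the EGR1 call without any of the enzastaurin arrays, while that of MYC held without each array in turn. With slide as a block, enzastaurin calls numbered 1 of 11 for ligand release, 2 of 23 for adaptors, 1 of 20 for down-regulation, 0 of 13 for the RAS to ERK cascade (1 at an unadjusted p under 0.05) and 2 of 19 for the induced transcripts, against 3.5% of all probes. The lists count genes at their brightest probe, and no share over genes was computed for the slide-block fit, so shares of probes stand in for it. In that same fit, 6 of the 19 induced transcripts were called between Go and enzastaurin, against 5.32% of all probes.

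**Figure D4:**
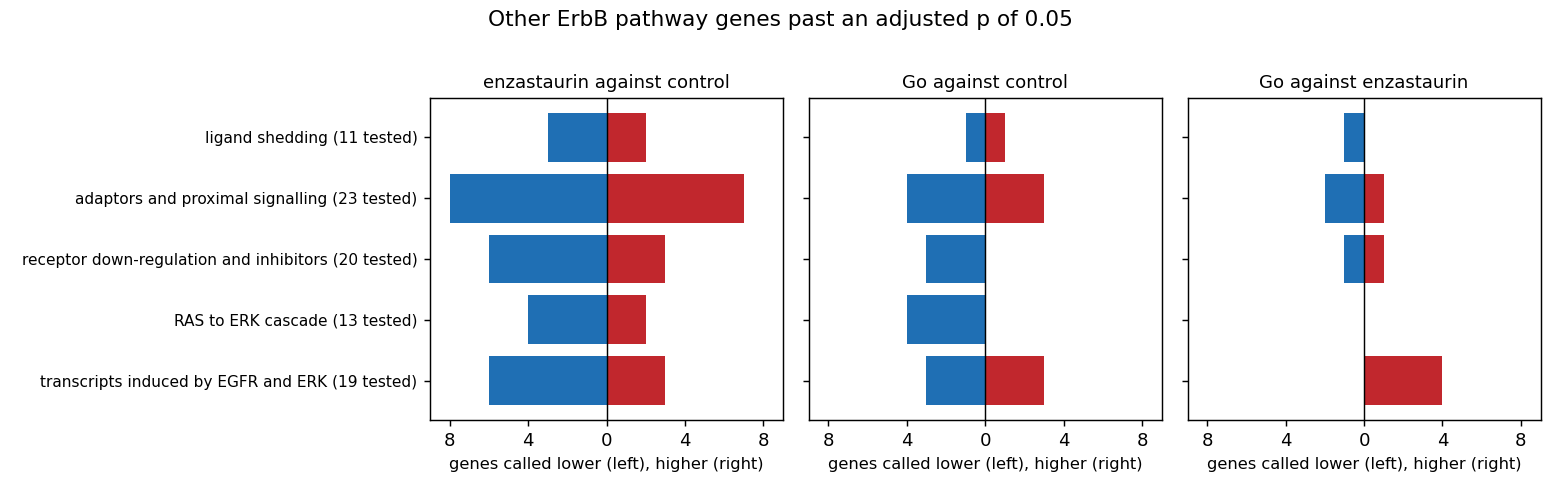
Number of genes called lower (bars to the left) and higher (bars to the right) in 5 pathway lists, for each comparison, at an adjusted p under 0.05; the number tested stands beside each list name. Enzastaurin against control has calls in both directions in every list, and Go against enzastaurin has 4 higher and 0 lower among the transcripts induced by EGFR and ERK.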

How the data were processed

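Total RNA of 8 CAL-27 samples was hybridised to single-colour arrays, grouped and numbered by their labels. The deposited scanner tables give, per the file headers, the pixel intensity of each spot and its background, a signal-to-noise score, the percent of saturated pixels and other columns of spot position. The authors' deposited value table holds, by comparison with those tables, background-subtracted intensity without scaling between arrays (array medians 38 to 56). No aligner or normalisation is given in the sources used here.

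On every array the annotation columns lie in the reverse order of the spots. Rotated, they gave a rank correlation across probes with the value table of 0.9904 to 0.9937, and as deposited 0.007241 to 0.01301, so the rotated annotation was used. Mean foreground less median background, by normexp with an offset of 50, was quantile normalised, averaged over the spots of a probe and fitted with limma 3.58.1 in R 4.3.3 (lmFit and eBayes, 3 groups in 1 fit, residual df 5, prior df 2.97, Benjamini-Hochberg over 24771 probes). Control spots were left out of the fit and saturated spots kept. A probe was tested where its score exceeded 3 on at least 2 arrays. On simulated data for enzastaurin against control, 24771 probes with 200 changed, 96.4%, 85.7% and 43.9% of changes of 2, 1 and 0.5 on the log2 scale were recovered, with 4.64% of calls false. In the data 52.6% of tested probes were called and drug and slide coincide, so that these shares do not carry over to the calls given here. The number of arrays limits the precision.

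All probes of the members are given. Of each pathway list, read at the brightest probe of a gene, up to 4 called genes a comparison are named, by smallest adjusted p, and the 3 nearest profiles of 4 members. Some genes this rule names are not reported here. Members and lists were chosen with earlier results of these data known. Alternatives were other scalings and background corrections, other filters, the deposited values (log2 of value plus 16), 1 probe a gene, only the groups compared, the slide or the replicate number as a block, and each array left out.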

Additional observations from a re-analysis of the deposited data

How the results depend on the processing

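Of 879 differences of member probes recomputed under the alternatives, 793 kept their direction and side of the threshold, or their side where not called, 64 lost a call, 19 gained one and 3 called differences changed sign. The 3 were enzastaurin against control for EGFR, 0.09 with slide as a block and 0.07 in the deposited values without scaling between arrays, and for AREG, 0.08 in those values. That last setting was chosen after seeing the data. Among the other named genes HRAS changed sign there, at 0.19. The tally counts the slide block and the matching left-out Go array as separate settings, though for the Go comparisons they are the same contrast.

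Counts of calls moved by over 1.5 times as follows, where the causes were not tested beyond what each setting does. For enzastaurin against control, 13033 probes became 6959 with 1 probe a gene, where fewer are tested, and 867 with slide as a block. The 11 member calls became 2 with slide as a block and 7 in the unscaled deposited values. For Go against control, 7348 probes became 4430 with median scaling, 4037 with 1 probe a gene, 1385 with slide as a block, 3727 in the unscaled values and 0 when only control and Go arrays entered limma's fit (8223 at an unadjusted p under 0.05). The 4 member calls became 2 with 1 probe a gene, 1 with slide as a block, 1 in the unscaled values and 0 with only the groups compared (4 at an unadjusted p under 0.05). For Go against enzastaurin, 1108 probes became 258 with a replicate block and 177 in the unscaled values. The 2 member calls became 1 with median scaling, 1 with the quantile normalised deposited values, 1 with 1 probe a gene, 0 in the unscaled values (0 at an unadjusted p under 0.05) and 0 with the replicate block (4 at an unadjusted p under 0.05).

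With each array left out in turn, calls for enzastaurin against control ranged from 9490 to 14314 probes and 8 to 13 member probes, for Go against control from 929 to 10196 and 1 to 6, and for Go against enzastaurin from 154 to 2594 and 0 to 3. A group of Go left with 1 array was assumed to vary like the others.

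Arrays of the same replicate number correlated in their deviations from group means by -0.148 to 0.161, and 3 of 7 pairs exceeded 0.1, so the numbers were not taken as pairs. With the replicate block, 12451 probes and 11 member probes were called for enzastaurin and 7844 and 5 for Go against control, ERRFI1 being added for Go (-0.51, adjusted p = 0.0239), while ERBB2 (0.54, 0.093) and the GGF2 probe of NRG1 (0.66, 0.0715) were lost between Go and enzastaurin.

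The median difference of all tested probes for enzastaurin against control was -0.07 after quantile normalisation, 0.08 with median scaling, -0.18 with the 75th percentile and 0.30 unscaled, and the share of calls that were higher was 41.8%, 64.8%, 30.8% and 81.8%. Relative to those shifts EGFR was at -0.38 with both median and 75th percentile scaling and at -0.24 unscaled, AREG at -0.21, -0.21 and -0.22, and the GGF probe of NRG1 at -1.14, -1.14 and -1.18. For Go against control the share was 44.6%, and 72.2% with median scaling and 85% unscaled, and for Go against enzastaurin 53%, 28.5% and 28.8%. Probes not above background, which include both BTC probes and the SMDF probe, have only a bound.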
